A study of Rattus norvegicus with 14 samples.

Results

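The genes described here are those that encode potassium channels and their accessory subunits, taken as every row of the count table whose name begins with Kcn followed by letters and a number. This rule found 96 rows, which carry 93 gene symbols, among 26319 rows in all. The table gives 3 of these genes, Kcnk6, Kcnk13 and Kcnn2, as 2 rows each that differ in position. Of the 96 rows, 81 passed the filter on low counts and were tested, and 15 did not.

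The samples came from the colon of male Wistar rats, all taken 72 h after treatment. In 6 rats colitis was induced by TNBS (trinitrobenzene sulfonic acid, a hapten that damages the colonic wall), given into the colon in 0.25 ml, and each of these rats gave 1 sample of an inflamed region and 1 of a separate uninflamed region. The 2 control rats were vehicle-treated by the labels and are called untreated in the study, and their samples were from random sections of the distal colon. Total RNA was sequenced in these 14 samples, 6 TNBS inflamed, 6 TNBS uninflamed and 2 control. Replicates are different rats, and the inflamed and uninflamed libraries come from the same 6 animals.

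Potassium channels let potassium leave the cell and so hold the membrane potential that other transport and excitation depend on. In the crypts of the colon, basolateral channels built from KCNQ1 with its subunit KCNE3, and the calcium-activated channel KCNN4, return potassium to the blood side while chloride is secreted. In the muscle layers, large- and small-conductance calcium-activated channels, ATP-sensitive channels and voltage-gated channels quiet contraction, and enteric neurons carry a wide set of voltage-gated channels. Leukocytes use a few channels of their own, among them KCNA3 of T cells. The members were therefore grouped as epithelial channels (8 tested), muscle and interstitial channels (15 tested), neuronal channels (42 tested), leukocyte and glial channels (4 tested) and other members (12 tested).

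Libraries held 6734968 to 13792657 reads in inflamed, 7813797 to 13234808 in uninflamed and 12013023 to 12041314 in control samples. Levels are given as CPM, the reads of a gene scaled to library size with edgeR's TMM factors (trimmed mean of M-values), and 3 reads in a library were worth 0.182 to 0.478 CPM. Because CPM does not account for gene length, levels are compared between samples and not between genes. The tissue markers set the frame for what follows. The summed level of 10 epithelial markers was 159 to 4123 CPM in inflamed, 3770 to 7364 CPM in uninflamed and 3696 to 7574 CPM in control libraries, and that of 8 smooth muscle markers was 1105 to 3973 CPM in inflamed, 3530 to 10583 CPM in uninflamed and 4855 to 5480 CPM in control libraries. The summed level of 6 neutrophil markers was 349 to 2014 CPM in inflamed, 11.3 to 25.97 CPM in uninflamed and 12.5 to 17.1 CPM in control libraries. No marker of these lists was at 0 in all libraries. In the test used below, all 10 epithelial and 5 of the 8 smooth muscle markers were lower, and all 6 neutrophil markers higher, in inflamed than in uninflamed regions. In such bulk samples, fewer cells of a type and less RNA per cell cannot be told apart.

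Between inflamed and uninflamed regions, 10 channel genes changed. Those that were lower were the epithelial subunit Kcne3, the inward rectifier Kcnj5 from the neuronal list and the background channels Kcnk6, Kcnk5 and Kcnk1, and those that were higher were Kcnj2 and Kcna3, channels found in leukocytes, Kcnj8 and Kcne4 from the muscle and interstitial list, and Kcnab3 from the neuronal list. In the edgeR quasi-likelihood test with Benjamini-Hochberg adjustment over all 18678 genes tested (here called the edgeR adjusted p), with a threshold of 0.05 and a change of at least 2-fold, 5 of the 81 tested members were higher and 5 were lower. Of all genes tested, 6.15% were higher and 6.95% lower, so the share of channel genes called was near that of all genes, at 12.3% against 13.1% in either direction. The median log2 fold change of the tested members was 0.10, and that of all genes was 0.04. Scaled by library totals alone, which raised the median of all genes to 0.28, the calls were 7 higher and 4 lower among the members, and 1831 higher and 765 lower among all genes, against 1148 higher and 1298 lower with TMM scaling.

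**Figure D1:**
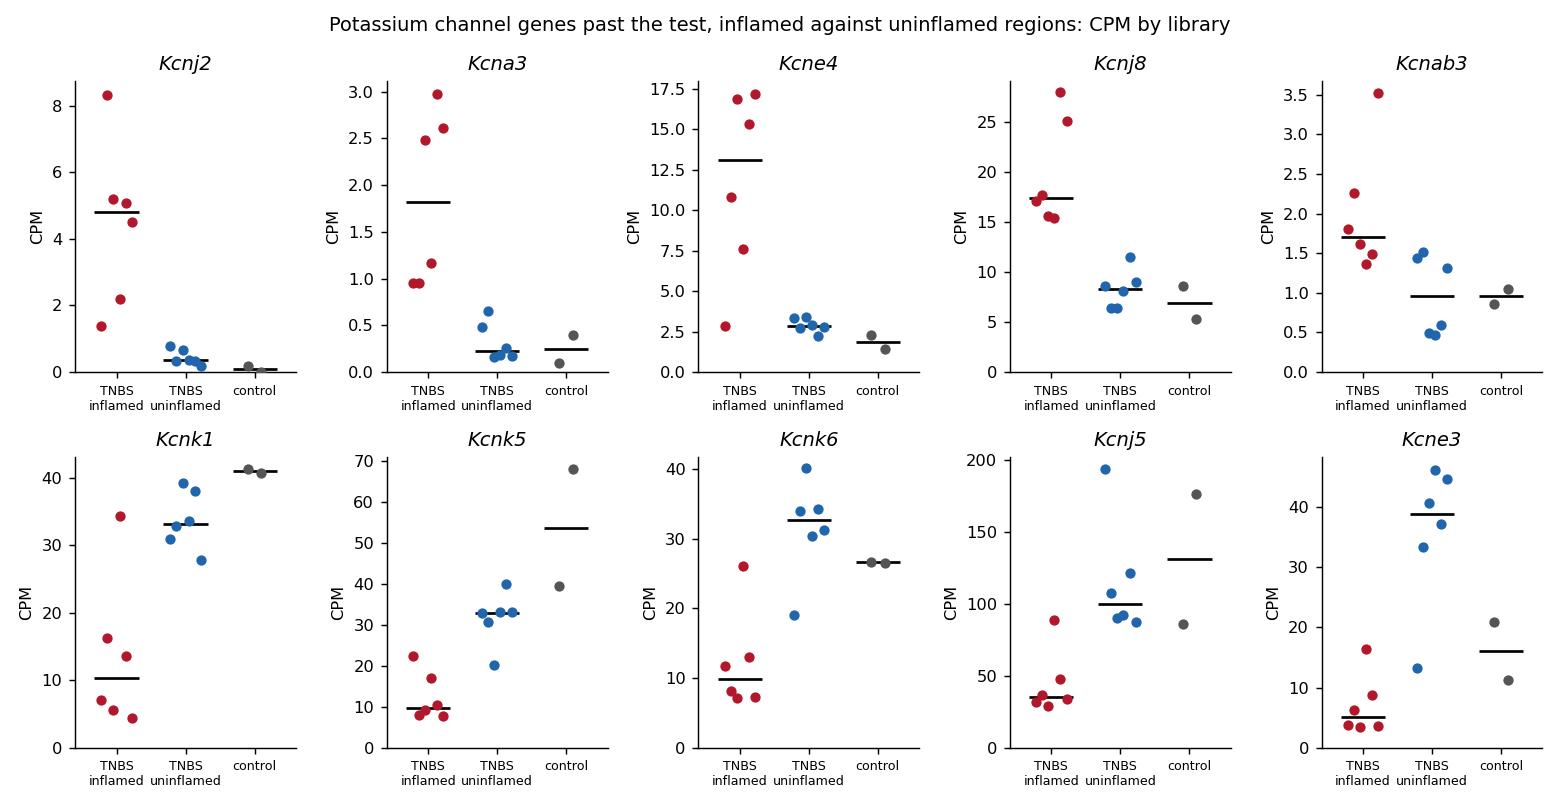
CPM (vertical axes, each starting at 0) of the 10 channel genes past the threshold between inflamed and uninflamed regions, 1 point per library, with the median of each group as a line. Inflamed libraries of Kcnj2, Kcna3 and Kcnj8 lie above all others, and those of Kcne3, Kcnk5, Kcnk6, Kcnk1 and Kcnj5 lie mostly below the uninflamed ones, with 1 high inflamed library in several of them.

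Promoter sequences were available for 8 of these 10 genes (and for 62 of the 93 symbols) from RefSeq on the build GRCr8, from 250 bases before to 50 bases after the annotated start. Of the genes that were lower, Kcne3 and Kcnk5 are shown, and of those that were higher, Kcnj2 and Kcna3, as examples of each direction. Capitals mark matches to the GC box GGGCGG on either strand.
Kcne3, chr1:163935785-163936084, plus strand: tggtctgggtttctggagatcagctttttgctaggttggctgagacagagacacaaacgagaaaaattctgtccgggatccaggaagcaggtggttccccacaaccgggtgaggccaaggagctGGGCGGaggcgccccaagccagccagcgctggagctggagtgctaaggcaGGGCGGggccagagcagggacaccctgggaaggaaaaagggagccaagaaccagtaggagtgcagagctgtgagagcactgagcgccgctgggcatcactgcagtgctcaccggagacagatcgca
Kcnk5, chr15:4171375-4171674, plus strand: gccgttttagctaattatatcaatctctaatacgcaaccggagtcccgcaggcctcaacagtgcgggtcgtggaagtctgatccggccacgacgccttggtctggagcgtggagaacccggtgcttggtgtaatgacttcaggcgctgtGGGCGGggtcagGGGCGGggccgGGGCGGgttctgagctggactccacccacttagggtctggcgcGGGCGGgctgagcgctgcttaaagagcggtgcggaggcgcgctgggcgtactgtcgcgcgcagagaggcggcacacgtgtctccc
Kcnj2, chr10:96559975-96560274, plus strand: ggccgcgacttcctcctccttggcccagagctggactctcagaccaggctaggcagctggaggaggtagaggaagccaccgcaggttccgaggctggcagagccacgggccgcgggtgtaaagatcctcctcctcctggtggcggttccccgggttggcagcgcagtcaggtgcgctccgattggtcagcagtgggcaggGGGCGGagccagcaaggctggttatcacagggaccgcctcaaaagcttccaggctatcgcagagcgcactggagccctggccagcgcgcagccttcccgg
Kcna3, chr2:197320074-197320373, plus strand: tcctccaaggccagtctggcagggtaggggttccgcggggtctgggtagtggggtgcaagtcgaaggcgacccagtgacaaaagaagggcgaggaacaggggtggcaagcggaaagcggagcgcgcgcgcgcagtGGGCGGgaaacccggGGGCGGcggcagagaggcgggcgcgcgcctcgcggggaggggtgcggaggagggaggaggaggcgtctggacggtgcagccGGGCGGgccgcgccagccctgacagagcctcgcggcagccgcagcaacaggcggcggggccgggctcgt
The search covered 4 motifs on both strands. A GC box was present in 7 of the 8 promoters, in genes that were higher and in genes that were lower, against 33.1% of all 33469 promoters of that length. The windows of Kcne3, Kcnk5, Kcnj2 and Kcna3 held 2, 4, 1 and 3 of them, and that of Kcnab3 held 0. None of the other motifs had a match in any of the 8 windows: the TATA box TATAAA is held by 14.2% of all promoters, the AP-1 site TGANTCA by 7.33% and the CDX site TTTATG by 12.7%. The share with a GC box among all channel genes with a promoter was not determined. A match is a description of these letters only.

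Kcne3, the subunit that holds KCNQ1 channels open in crypt cells, had the largest fall among the members. It had 3.47, 5.06 and 16.5 CPM (lowest, median and highest) in inflamed libraries, against 13.2, 38.9 and 46.2 CPM in uninflamed libraries and 20.9 and 11.3 CPM in controls. It was lower in the inflamed region of all 6 rats, although the ranges of inflamed and uninflamed libraries overlapped. The log2 fold change was -2.33 (SE 0.41, edgeR adjusted p = 0.00124). Against controls, whose values lie between the medians of the other groups, the inflamed regions gave a log2 fold change of -1.18 (edgeR adjusted p = 0.154), which did not pass.

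Kcnq1, the pore-forming partner of Kcne3, was not called between inflamed and uninflamed regions. It had 64.3, 76.5 and 291 CPM in inflamed libraries, against 85.7, 113 and 149 CPM in uninflamed libraries and 172 and 169 CPM in controls. The inflamed library of rat 219, at 291 CPM, was above all other libraries, and in the other 5 rats the inflamed region had the lower value. Its log2 fold change was -0.02 (95% interval -0.68 to 0.65, edgeR adjusted p = 0.975), and without rat 219 it was -0.53 (edgeR adjusted p = 0.0808). Apart from that of rat 219, every inflamed library was below both controls. Against controls Kcnq1 was not called over all libraries, but it was called lower without rat 219.

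Since both values come from the same library, the log2 ratio of Kcne3 to Kcnq1 reads does not depend on scaling. This ratio, chosen after the values were seen as 1 of 3 such ratios, averaged -4.0 ± 0.96 in inflamed and -1.76 ± 0.55 in uninflamed libraries (SD, n = 6 each), and was -3.04 and -3.89 in the 2 controls. It was lower in the inflamed region of 6 of 6 rats, by 2.24 on the log2 scale. A two-sided exact permutation test over the 12 libraries gave p = 0.0022 (adjusted over the 3 ratios, 0.0065), and the exact paired test gave p = 0.031 (adjusted, 0.047), each raw p being the smallest that its test allows here for n = 6. The first test leaves out the pairing by rat. Neither test, adjusted or not, accounts for choosing the ratio from these same values, so each p only describes the separation. Leaving out each rat in turn gave differences from -2.44 to -1.97, each with an exact p of 0.0079, the smallest that 5 rats allow. Both controls lay within the range of the inflamed libraries and below all uninflamed ones in this ratio.

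**Figure D2:**
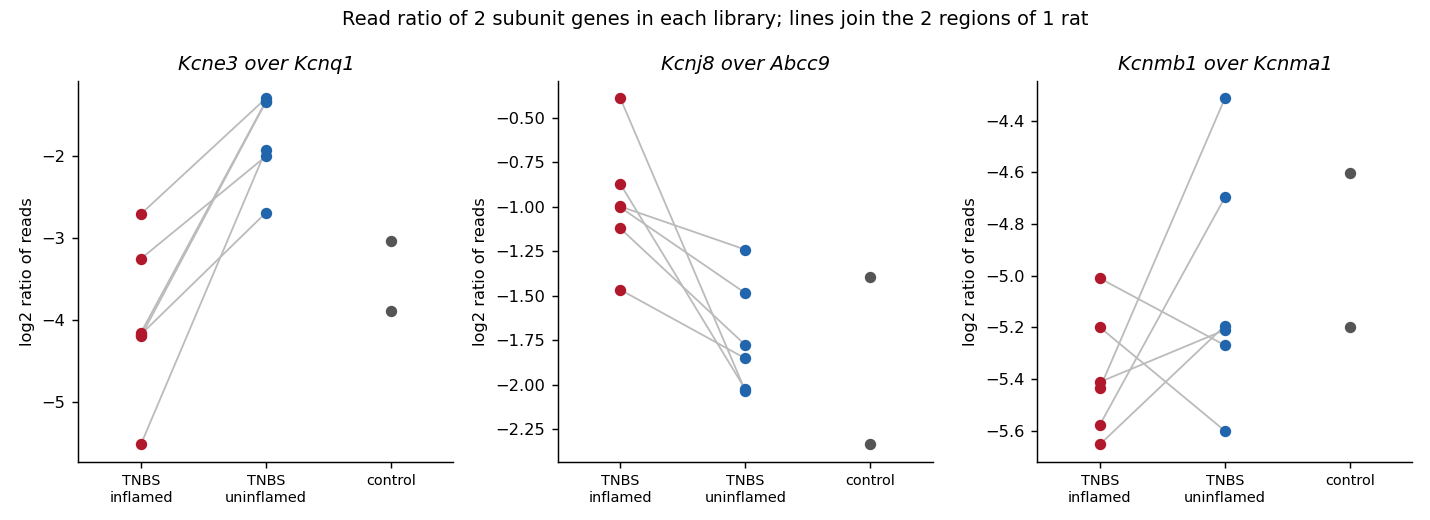
Log2 ratio of reads on 2 genes whose products form 1 channel (vertical axes), for Kcne3 over Kcnq1, Kcnj8 over Abcc9 and Kcnmb1 over Kcnma1; points are libraries and grey lines join the 2 regions of 1 rat. The ratio of Kcne3 to Kcnq1 is lower, and that of Kcnj8 to Abcc9 higher, in the inflamed region of all 6 rats, while the lines of Kcnmb1 to Kcnma1 cross.

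Among the background channels, whose tandem pore domains leave a resting potassium conductance, Kcnk5 responds to extracellular pH and cell volume. It had 7.65, 9.81 and 22.5 CPM in inflamed libraries, against 20.1, 32.9 and 39.96 CPM in uninflamed libraries and 39.4 and 68.0 CPM in controls. Its inflamed region was lower in all 6 rats, with a log2 fold change of -1.34 (SE 0.27, edgeR adjusted p = 0.00267). Every inflamed library was also below both controls, and that comparison gave -2.11 (edgeR adjusted p = 0.00169).

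Kcnk6, a weak inward rectifier of the same family, is given as 2 rows on Rnor_5.0. The row at chromosome 1, 88346899 to 88355439, held nearly all of its reads, while the row at chromosome 1, 89344803 to 89352036, averaged 0.231 CPM and was not tested. The main row had 7.07, 9.92 and 26.1 CPM in inflamed libraries, against 19.1, 32.7 and 40.1 CPM in uninflamed libraries and 26.7 and 26.5 CPM in controls. It was lower in the inflamed region of all 6 rats (log2 fold change -1.36, SE 0.30, edgeR adjusted p = 0.00403). Against controls the log2 fold change was -1.12 (edgeR adjusted p = 0.0644).

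Kcnk1, the closest relative of Kcnk6 among the members described here, had 4.37, 10.4 and 34.4 CPM in inflamed libraries, against 27.7, 33.2 and 39.1 CPM in uninflamed libraries and 41.3 and 40.7 CPM in controls. The log2 fold change was -1.31 (SE 0.40, edgeR adjusted p = 0.0283), and 5 of 6 rats were lower. Rat 221 went the other way, at 34.4 CPM in its inflamed and 33.5 CPM in its uninflamed region. The call did not hold when rats 218, 219, 220, 222 or 223 were left out (edgeR adjusted p from 0.0617 to 0.0871) or under library totals (edgeR adjusted p = 0.0995), and without rat 221 the log2 fold change was -1.88 (edgeR adjusted p = 0.00052).

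The inflamed library of rat 221 stood high in most of the genes that fell. It held 34.4 CPM of Kcnk1, 26.1 CPM of Kcnk6, 16.5 CPM of Kcne3 and 88.8 CPM of Kcnj5, the highest inflamed value of each, and its epithelial marker sum was 4123 CPM, against 159 to 1256 CPM in the other 5 inflamed libraries. Leaving out that library alone gave 6 lower members in place of 5, with Kcnk7 added, and the same 5 higher members. Whether the epithelial share accounts for the lower values was not tested.

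The other tested epithelial members did not pass. Kcnn4, the calcium-activated channel of secretory cells, had 5.70, 9.63 and 21.8 CPM in inflamed libraries, against 11.2, 18.7 and 24.5 CPM in uninflamed libraries and 17.9 and 10.4 CPM in controls (log2 fold change -0.62, 95% interval -1.21 to -0.03, edgeR adjusted p = 0.151). This interval uses a normal multiplier and is narrower than the test implies, so its lying below 0 is not a call. Kcnn4 was lower in the inflamed region of 5 rats and higher in rat 218, at 21.8 against 11.2 CPM. The inward rectifiers Kcnj15 and Kcnj1, of which the product of Kcnj1 is best known from the renal tubule, were low throughout. Kcnj15 had 1.34, 2.67 and 4.37 CPM in inflamed, 1.73, 2.38 and 2.91 CPM in uninflamed and 2.36 and 1.73 CPM in control libraries (log2 fold change 0.28). Kcnj1 had 0.476, 0.891 and 1.91 CPM in inflamed, 0.785, 0.963 and 3.51 CPM in uninflamed and 0.769 and 1.05 CPM in control libraries (log2 fold change -0.38). Of the epithelial list, 4 of 8 tested members were thus lower and 0 higher, where 6.95% of all genes were lower and 6.15% higher, and the list had a median log2 fold change of -0.96 against 0.04 for all genes.

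**Figure D3:**
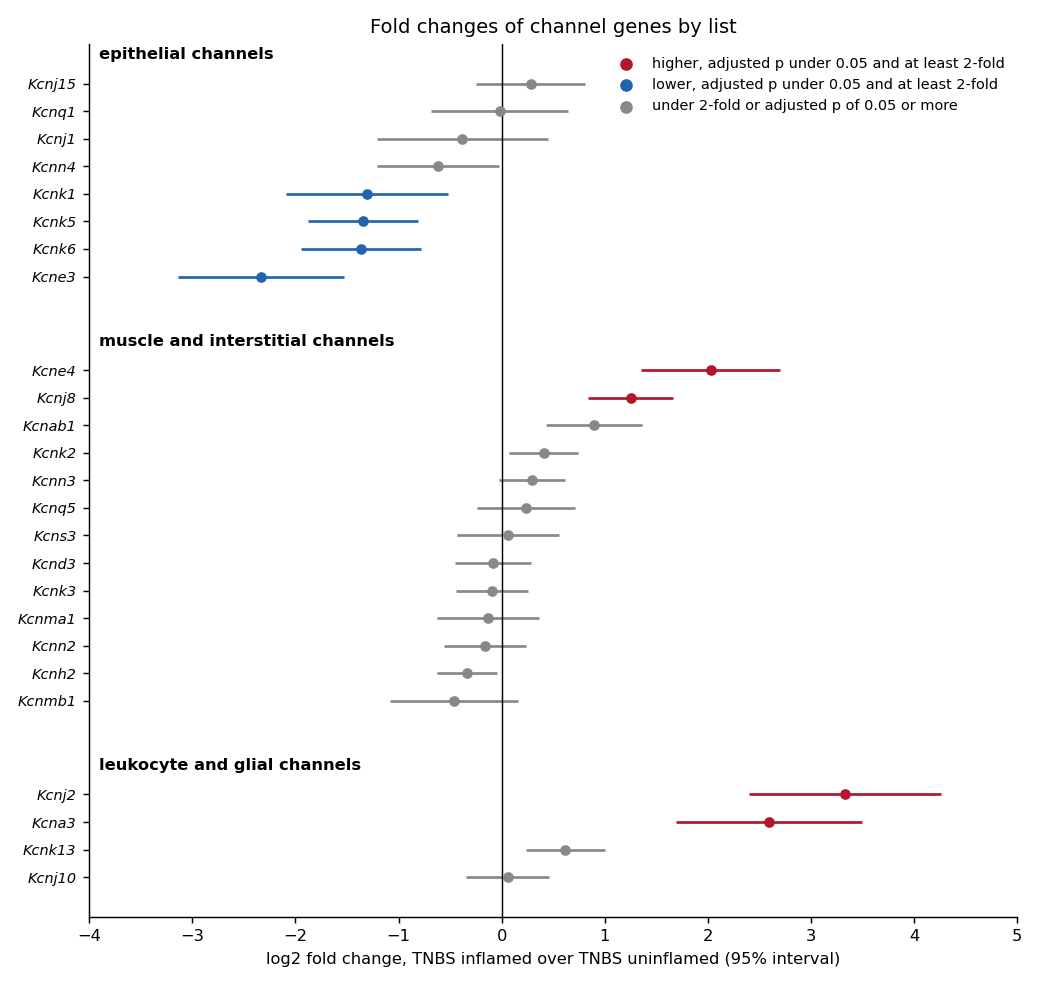
Log2 fold change of inflamed over uninflamed regions (horizontal axis) with its 95% interval for tested members of the epithelial, muscle and interstitial, and leukocyte and glial lists. Epithelial members extend to the left as far as Kcne3 at -2.33, most muscle and interstitial members lie near 0, and Kcnj2 lies farthest to the right at 3.33.

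Kcnj2, a strong inward rectifier that sets the resting potential of macrophages, endothelium and muscle, had the largest rise. It had 1.38, 4.79 and 8.33 CPM in inflamed libraries, against 0.174, 0.359 and 0.797 CPM in uninflamed libraries and 0.192 and 0 CPM in controls. Every inflamed library was above every uninflamed and control library. Inflamed over uninflamed, its log2 fold change was 3.33 (SE 0.47, edgeR adjusted p = 0.000334). The controls together held 2 reads of Kcnj2 and the inflamed libraries 303, a ratio of levels of 38.4 with a 95% counting interval of 10.5 to 318, and the edgeR adjusted p against controls was 0.00267. This call held without either control.

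Kcna3, the voltage-gated channel that sustains calcium entry in T cells, was low but separate. It had 0.952, 1.82 and 2.97 CPM in inflamed libraries, against 0.164, 0.222 and 0.648 CPM in uninflamed libraries and 0.0962 and 0.394 CPM in controls, with no overlap. The log2 fold change was 2.59 (SE 0.46, edgeR adjusted p = 0.00118), and in all 6 rats the inflamed region was higher. The inflamed libraries held 139 reads and the controls 4, a ratio of levels of 8.80 (95% counting interval 3.36 to 32.8). In the main fit, Kcna3 and Kcnj2 reached the count minimum through their inflamed libraries alone. In fits on the 12 libraries of TNBS-treated rats alone, the fit that pairs regions by rat included, Kcna3 did not reach the count minimum and was not tested.

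Markers of macrophages and T cells changed unevenly. The summed level of 5 macrophage markers was 157 to 308 CPM in inflamed, 115 to 238 CPM in uninflamed and 77.4 to 98.8 CPM in control libraries, and it was lower in the inflamed region of rats 219 and 220. Between inflamed and uninflamed regions 1 of the 5, Cd68, was higher, at a log2 fold change of 2.11, and the other 4 did not pass, among them C1qa at -0.54 and C1qb at -0.42. That of 5 T cell markers was 42.4 to 143 CPM in inflamed, 20.3 to 43.7 CPM in uninflamed and 16.2 and 371 CPM in control libraries, and 1 of the 5, Cd3g, was higher, at a log2 fold change of 4.33, while Cd4 stood at 0.04. The high T cell sum of control 217 came from Cd4, at 351 CPM. The 4 endothelial markers had log2 fold changes from 0.64 to 1.27, and 2 of them passed. The part of any of these markers, and of the neutrophil and smooth muscle markers above, in the values of Kcnj2 and Kcna3 was not tested.

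Kcnj8, the pore of the ATP-sensitive channel of vascular smooth muscle and pericytes, had 15.4, 17.4 and 27.9 CPM in inflamed libraries, against 6.38, 8.33 and 11.5 CPM in uninflamed libraries and 8.56 and 5.25 CPM in controls. No inflamed library overlapped either of the other groups. Its log2 fold change was 1.25 (SE 0.21, edgeR adjusted p = 0.000857). Its regulatory partner Abcc9, a sulfonylurea receptor, had 22.3, 38.4 and 56.0 CPM in inflamed libraries, against 21.3, 26.9 and 35.5 CPM in uninflamed libraries and 26.8 and 22.6 CPM in controls (log2 fold change 0.52, edgeR adjusted p = 0.0815). The log2 ratio of Kcnj8 to Abcc9 reads averaged -0.97 ± 0.35 in inflamed and -1.74 ± 0.32 in uninflamed libraries (SD, n = 6 each) and was -1.40 and -2.34 in the controls. It was higher in the inflamed region of all 6 rats, with an exact permutation p of 0.0043 (adjusted over the 3 ratios, 0.0065) and an exact paired p of 0.031 (adjusted, 0.047). This ratio too was chosen after the values were seen, which these p-values do not account for. The summed level of 4 endothelial markers was 82.4 to 150 CPM in inflamed, 47.8 to 78.3 CPM in uninflamed and 43.7 to 56.2 CPM in control libraries, and its part in the Kcnj8 values was not tested.

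Kcne4, a subunit that inhibits KCNQ1 and KCNA3 channels in studies of the human proteins, had 2.86, 13.1 and 17.2 CPM in inflamed libraries, against 2.23, 2.85 and 3.37 CPM in uninflamed libraries and 2.31 and 1.44 CPM in controls. The log2 fold change was 2.03 (SE 0.34, edgeR adjusted p = 0.000902). It was higher in the inflamed region of 5 of 6 rats. The exception was rat 218, with 2.86 CPM in its inflamed and 3.35 CPM in its uninflamed region. The inflamed library of this rat also had the lowest Kcnj2 value, 1.38 CPM, and the highest Kcnk5 and Kcnn4 values of the inflamed libraries, and its smooth muscle marker sum was the lowest of all, 1105 CPM.

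The other 13 tested members of the muscle and interstitial list stayed under the threshold, 5 of them with positive and 8 with negative log2 fold changes. Kcnma1, the pore of the large-conductance calcium-activated channel, had 106, 212 and 326 CPM in inflamed libraries, against 143, 229 and 263 CPM in uninflamed libraries and 277 and 204 CPM in controls (log2 fold change -0.13, 95% interval -0.63 to 0.36). Kcnmb1, its smooth muscle subunit, had 2.44, 4.64 and 8.80 CPM in inflamed libraries, against 3.86, 6.89 and 10.99 CPM in uninflamed libraries and 8.37 and 7.48 CPM in controls (log2 fold change -0.46, 95% interval -1.09 to 0.16). Neither passed. The log2 ratio of Kcnmb1 to Kcnma1 reads averaged -5.38 ± 0.24 in inflamed and -5.05 ± 0.46 in uninflamed libraries (SD, n = 6 each). The difference of these means did not pass (exact permutation p = 0.158, exact paired p = 0.25).

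Small-conductance calcium-activated channels answer inhibitory transmitters in the gut wall. Kcnn2, found in muscle and nerve, had 14.5, 17.5 and 21.1 CPM in inflamed libraries, against 14.5, 18.4 and 30.2 CPM in uninflamed libraries and 15.3 and 28.6 CPM in controls (log2 fold change -0.16). Kcnn3, the form of interstitial cells that carry Pdgfra, had 22.7, 29.9 and 37.0 CPM in inflamed libraries, against 19.3, 23.0 and 30.6 CPM in uninflamed libraries and 25.9 and 30.6 CPM in controls (log2 fold change 0.29). Inflamed and uninflamed libraries overlapped for either gene. A-type channels shape the slow waves and spikes of muscle. Kcnd3, an A-type channel, had 20.7, 30.8 and 40.2 CPM in inflamed libraries, against 21.5, 35.2 and 41.4 CPM in uninflamed libraries and 30.3 and 39.5 CPM in controls (log2 fold change -0.08). Kcns3, a silent subunit that modifies voltage-gated channels, had 4.87, 10.0 and 12.2 CPM in inflamed libraries, against 6.70, 7.70 and 15.4 CPM in uninflamed libraries and 7.79 and 11.7 CPM in controls (log2 fold change 0.06). Neither passed, and 1 uninflamed library, that of rat 220, was high for Kcns3. Kcnab1, a cytoplasmic subunit of voltage-gated channels, had 47.9, 79.8 and 143 CPM in inflamed libraries, against 37.1, 45.1 and 61.2 CPM in uninflamed libraries and 48.5 and 49.6 CPM in controls (log2 fold change 0.90, edgeR adjusted p = 0.0122). It passed the adjusted p but not the 2-fold limit, and rose in 5 of 6 rats.

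The channels that hold muscle near rest were also under the threshold. Kcnh2, a channel of the ether-a-go-go family, had 4.77, 5.32 and 6.42 CPM in inflamed libraries, against 5.30, 6.85 and 8.06 CPM in uninflamed libraries and 6.06 and 6.83 CPM in controls (log2 fold change -0.34). Kcnq5, an M-type channel of muscle, had 18.8, 22.6 and 26.2 CPM in inflamed libraries, against 13.4, 15.7 and 38.1 CPM in uninflamed libraries and 12.98 and 19.8 CPM in controls (log2 fold change 0.24). Both had overlapping groups, and the highest Kcnq5 value was that of the uninflamed library of rat 218. Kcnk2, a background channel opened by stretch, had 14.1, 14.6 and 21.4 CPM in inflamed libraries, against 10.4, 12.4 and 14.2 CPM in uninflamed libraries and 10.2 and 17.5 CPM in controls (log2 fold change 0.41). Kcnk3, a background channel closed by acid, had 6.86, 9.31 and 11.2 CPM in inflamed libraries, against 6.99, 9.63 and 12.6 CPM in uninflamed libraries and 11.1 and 8.66 CPM in controls (log2 fold change -0.09). The 95% interval of Kcnk3 ran from -0.44 to 0.26, and that of Kcnk2 from 0.08 to 0.74 (edgeR adjusted p = 0.0918).

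The medians of the lists move with the scaling. For the muscle and interstitial list the median log2 fold change between inflamed and uninflamed regions was -0.08 with TMM scaling and 0.21 with library totals, and that of all genes was 0.04 and 0.28, so the list stood slightly below all genes with either scaling. For the neuronal list the same medians were 0.18 and 0.45, and for the epithelial list -0.96 and -0.75. Over the 8 smooth muscle markers the log2 fold changes were all negative, with a median of -1.21. The 3 interstitial cell markers were uneven. Pdgfra was higher, at 1.28 (edgeR adjusted p = 0.00135), while Kit at -0.54 and Ano1 at -0.66 did not pass. The part of these markers in the values of the list was not tested.

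Neuronal channels formed the largest list, and 2 of its 42 tested members passed the threshold between inflamed and uninflamed regions, Kcnab3 higher and Kcnj5 lower, where 13.1% of all genes passed in either direction. Positive log2 fold changes were found for 31 members and negative ones for 11, and under library totals for 38 and 4. The median of all genes was itself above 0, at 0.04 and 0.28 with these scalings. The share of positive values among all genes was not determined, so the split is not read as a rise of the list. Kcnab3, a cytoplasmic subunit of voltage-gated channels, had 1.37, 1.71 and 3.52 CPM in inflamed libraries, against 0.469, 0.954 and 1.51 CPM in uninflamed libraries and 0.865 and 1.05 CPM in controls (log2 fold change 1.09, SE 0.36, edgeR adjusted p = 0.0379). All 6 rats were higher in the inflamed region, but the call did not hold without rat 220, 221, 222 or 223 or without control 217 (edgeR adjusted p from 0.0503 to 0.106).

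Kcnj5, a G-protein-gated inward rectifier best known from the heart and the adrenal cortex, was placed in the neuronal list with its channel partner Kcnj3. It had 28.9, 35.1 and 88.8 CPM in inflamed libraries, against 87.2, 100.1 and 194 CPM in uninflamed libraries and 86.2 and 177 CPM in controls. The inflamed region was lower in all 6 rats, with a log2 fold change of -1.37 (SE 0.31, edgeR adjusted p = 0.00452). Only the inflamed library of rat 221 reached into the range of the uninflamed ones. The 3 other G-protein-gated members did not pass. Kcnj3 had 15.6, 21.1 and 470 CPM in inflamed libraries, against 15.9, 18.4 and 43.8 CPM in uninflamed libraries and 15.1 and 14.04 CPM in controls. The value of 470 CPM belongs to the inflamed library of rat 220, the other 5 inflamed libraries reached 28.4 CPM at most, and the log2 fold change was 2.07 (edgeR adjusted p = 0.0931). Kcnj3 passed in edgeR's exact test, which was run as an alternative. Kcnj6 ranged widely within every group, at 6.79 to 71.5 CPM in inflamed, 6.02 to 92.4 CPM in uninflamed and 47.1 and 6.25 CPM in control libraries, and Kcnj9 stayed at 0.493 to 1.34 CPM in all libraries.

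A further 4 neuronal or glial members passed the edgeR adjusted p with a rise of under 2-fold, beside Kcnab1 from the muscle list. Kcnk12, a background channel subunit, had 35.0, 49.7 and 57.5 CPM in inflamed libraries, against 25.9, 30.8 and 37.0 CPM in uninflamed libraries and 35.6 and 48.2 CPM in controls (log2 fold change 0.66, edgeR adjusted p = 0.00569). The log2 fold changes of Kcnh1 and Kcnh4, voltage-gated channels of the ether-a-go-go family, were 0.61 (edgeR adjusted p = 0.0197) and 0.81 (edgeR adjusted p = 0.0411). That of Kcnk13, a background channel which in mice is prominent in microglia, was 0.62 (edgeR adjusted p = 0.031), from 16.6 to 33.7 CPM in inflamed, 12.6 to 21.2 CPM in uninflamed and 13.4 to 15.9 CPM in control libraries. Kcnk7, a subunit without known current of its own and outside the 4 lists, was the single member lower in this way, by a log2 fold change of -0.90 (edgeR adjusted p = 0.0458). With the rat as a replicate block, Kcnh4 (edgeR adjusted p = 0.0852), Kcnk13 (edgeR adjusted p = 0.0706) and Kcnk7 (edgeR adjusted p = 0.0588) no longer passed. Without the 2-fold limit, 10 members were higher and 6 lower, where 11.6% of all genes were higher and 12.8% lower. Kcnj10, the inward rectifier of glia, had 4.25 to 5.81 CPM in inflamed, 3.45 to 6.86 CPM in uninflamed and 4.62 to 7.22 CPM in control libraries (log2 fold change 0.06).

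The members with the most reads in the neuronal list were Kcnh3, Kcnt2 and Kcnd2, and none of them passed. Kcnh3 took 1.02% to 2.17% of all reads in inflamed, 0.851% to 2.41% in uninflamed and 1.84% to 2.04% in control libraries, and ranked 4 among all genes, while the other members together took 0.143% to 0.276% of a library. RefSeq places a small nuclear RNA gene inside Kcnh3 and the gene Mcrs1 across its end, and reads on these cannot be told apart from those of Kcnh3 in a table per gene, so its values are not read here as a channel level. Kcnt2, a sodium-activated channel, had 92.1, 110 and 134 CPM in inflamed libraries, against 97.6, 114 and 256 CPM in uninflamed libraries and 136 and 316 CPM in controls (log2 fold change -0.31). Kcnd2, an A-type channel that spaces action potentials, had 58.7, 75.5 and 157 CPM in inflamed libraries, against 64.0, 113 and 211 CPM in uninflamed libraries and 95.7 and 130 CPM in controls (log2 fold change -0.37). Among members outside the lists, Kcng1, Kcng2 and Kcnu1 had the highest levels, with log2 fold changes of 0.19, -0.39 and -0.21, and none of the 12 passed. As for the neurons themselves, 2 of 11 tested enteric neuron markers were higher and 0 lower, and the summed level of the 12 listed was 120 to 266 CPM in inflamed, 126 to 651 CPM in uninflamed and 133 to 155 CPM in control libraries. The value of 651 CPM is that of rat 220, with 554 CPM from Nos1, and the other 5 uninflamed libraries held 126 to 145 CPM.

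**Figure D4:**
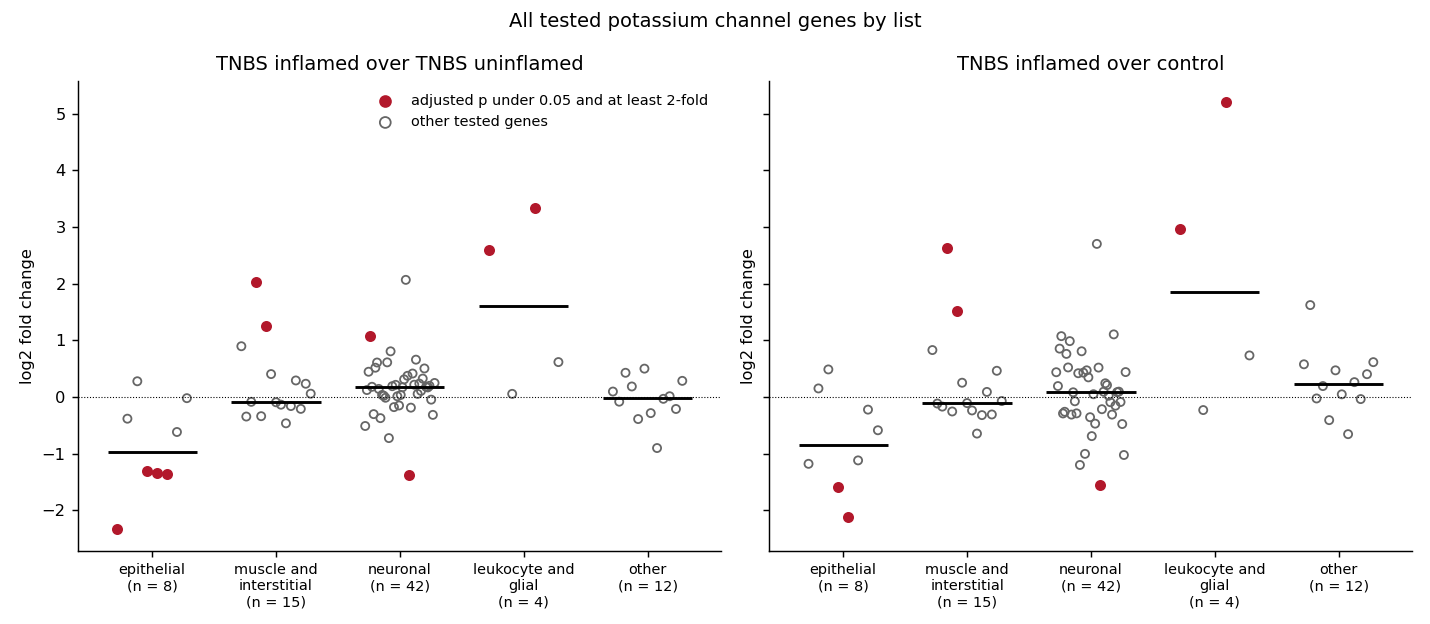
Log2 fold change (vertical axis) of all 81 tested members by list, for inflamed over uninflamed regions on the left and inflamed regions over controls on the right; filled points passed the threshold and bars are medians. Epithelial members lie lowest, with medians of -0.96 and -0.85, and leukocyte and glial members highest, with medians of 1.61 and 1.86. The leukocyte and glial list holds only 4 tested members. Of these, Kcnj2 and Kcna3 reached the count minimum through their inflamed libraries alone, so the high place of this list is not read as a result.

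Against the 2 controls, the inflamed regions had 4 members higher and 3 lower, where 5.93% of all genes were higher and 7.79% lower. The higher ones were Kcnj2, Kcna3, Kcnj8 and Kcne4, with log2 fold changes of 5.20, 2.97, 1.51 and 2.63. The lower ones were Kcnk5 at -2.11, Kcnk1 at -1.59 and Kcnj5 at -1.56. All 7 were also called against uninflamed regions, a comparison that uses the same inflamed libraries. Leaving out control 217 took 3 of the 4 higher and 2 of the 3 lower calls, with Kcnj2 and Kcnk5 remaining, and all genes then gave 248 higher and 671 lower, against 1107 and 1455 with both controls. Without that control the log2 fold changes of the lost members were 4.12 for Kcna3 (edgeR adjusted p = 0.0585), 1.20 for Kcnj8 (edgeR adjusted p = 0.102), 2.34 for Kcne4 (edgeR adjusted p = 0.091), -0.96 for Kcnj5 (edgeR adjusted p = 0.301) and -1.60 for Kcnk1 (edgeR adjusted p = 0.197), and that of Kcnj2 was 4.44. Without control 216, Kcna3 at 2.22 (edgeR adjusted p = 0.206) and Kcnk1 at -1.58 (edgeR adjusted p = 0.209) were lost, and since the remaining control had no read of Kcnj2, no fold is given for that gene. Kcnk1, with an edgeR adjusted p of 0.0498 over all libraries, was also lost without rat 218, 219, 220, 222 or 223. Under library totals, which raised the median of all genes to 0.72, 15 members were higher and 1 lower, so the direction split of this comparison depends on the scaling.

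Between uninflamed regions and controls 0 members passed, with edgeR's quasi-likelihood test as with its exact test, DESeq2 and limma-voom. Over all genes, the quasi-likelihood test called 27 (0.145%, all of them lower), the exact test 26 higher and 145 lower, DESeq2 39 higher and 112 lower, and limma-voom 0 higher and 6 lower. At an unadjusted edgeR p under 0.05, 3 members, Kcna7, Kcnh6 and Kcnk12, passed of the 81, and 8.89% of all genes did. Of the genes called between inflamed and uninflamed regions, Kcnk1, Kcnj5, Kcnab3, Kcnk6, Kcnj8 and Kcna3 had log2 fold changes from -0.28 to 0.38. Those of the others were 1.16 for Kcne3 (edgeR adjusted p = 0.613), -0.76 for Kcnk5 (edgeR adjusted p = 0.571), 1.87 for Kcnj2 (edgeR adjusted p = 0.659) and 0.60 for Kcne4 (edgeR adjusted p = 0.808). With 2 controls, differences of this size did not pass.

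The transport proteins that work with these channels were followed as a list of 32 genes, of which 1 was higher and 8 were lower between inflamed and uninflamed regions, where 6.15% of all genes were higher and 6.95% lower. The lower ones include the basolateral cotransporter Slc12a2 (log2 fold change -2.13), which brings in chloride together with the potassium that the channels return, the chloride channel Cftr (-2.19), the sodium pump subunit Atp1b1 (-2.12), and the proton-potassium pump subunit Atp12a (-2.58). They also include the kinase Sgk1 (-2.10), the sodium channel subunit Scnn1a (-1.36) and Lrrc26 (-2.05), a subunit of the large-conductance channel in secretory epithelium. The call of Lrrc26 did not hold under library totals or without rat 218, 219, 220 or 222 (edgeR adjusted p from 0.0604 to 0.0963). The sodium pump subunit Atp1b3 went the other way from Atp1b1, with higher values in the inflamed region of all 6 rats. Its log2 fold change was 0.75 (edgeR adjusted p = 0.00156), under the 2-fold limit, and Atp1b2, at 0.41, did not pass. Atp12a had 4.01, 11.03 and 39.6 CPM in inflamed libraries, against 23.9, 79.7 and 162 CPM in uninflamed libraries and 454 and 972 CPM in controls. Its uninflamed libraries were all below both controls, with a log2 fold change of -3.05 that did not pass (edgeR adjusted p = 0.111). The uninflamed libraries of Slc12a2 and Cftr were all above both controls. Slc12a2 had 415 to 736 CPM against 205 to 230 CPM, and Cftr 78.2 to 236 CPM against 66.9 to 71.7 CPM. These log2 fold changes, 1.26 and 1.23, did not pass (edgeR adjusted p = 0.565 and 0.519). Inflamed regions against controls did not pass for Slc12a2 (-0.87, edgeR adjusted p = 0.296) or Cftr (-0.95, edgeR adjusted p = 0.181).

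The 15 members that were not tested were at or near the limit of detection. The highest value of any of them in any library was 1.64 CPM, of Kcns2 in an uninflamed library. They include the epithelial members Kcne2, Kcnj13 and Kcnj16, the muscle members Kcna5 and Kcnj11, and the second rows of Kcnk6, Kcnk13 and Kcnn2, of which that of Kcnk13 had no read in any library.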

How the data were processed

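The deposited values are raw read counts per gene, whole numbers which the authors made from total RNA of colon tissue. Per the labels and the study's methods, ribosomal RNA was depleted, libraries were read on a SOLiD instrument, and reads of 50 bases were placed on Rnor_5.0 with Ensembl release 77 in CLC Genomics Workbench 7.5.1 (at most 2 mismatches, length and similarity fractions of 0.8, up to 10 places per read). With up to 10 places allowed, counts of near-identical copies are uncertain, and the sources used here do not state whether strand or introns were counted.

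All 14 libraries (6734968 to 13792657 reads) entered 1 fit with 3 groups in R 4.3.3 with edgeR 4.0.16: TMM scaling, filterByExpr with a minimum count of 10, and the robust quasi-likelihood test with Benjamini-Hochberg adjustment over 18678 genes. Calls needed an adjusted p below 0.05 together with a 2-fold difference. Log2 fold changes use a prior count of 0.125, and SE is the size of the fold change over the root of F. Intervals on read counts cover counting error only. For the read ratios 0.5 was added to each count. The code was tested on simulated counts.

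Values per sample are given for members called in any comparison and for tested members of the epithelial and the muscle lists, except 2 channel genes that, like 2 transport genes, are not reported here. The other members are given by counts, with the 3 highest of each list named. The channel families, lists, markers and tests were chosen with earlier results of these data known, and the read ratios and the promoter motifs after the values were seen. Regions of the same rat share a number in the labels. Their deviations from the group means correlated at -0.12 to 0.18 over the 6 rats, with 1 over 0.1. Alternatives were other scalings (RLE and library totals), no filter, edgeR's exact test, DESeq2 1.42.0, limma-voom 3.58.1, only the 2 groups compared, the rat as a block, and leaving out each rat or control. Leaving out the inflamed library of rat 221 alone was added after the data were seen. Gene names were matched to RefSeq (92 of 93 symbols), whose build differs from that of the counts, so it gives promoters and neighbours only.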

Additional observations from a re-analysis of the deposited data

Results flagged for a closer look

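Across the 33 genes followed most closely, 66 groups of 6 libraries were searched for a library far from the other 5, and 11 were found. For values with a normal spread, about 1 in 20 such groups (5%) would be flagged by chance. The search used CPM without a log scale, Kcnj3 and Kcnh3 were added to the genes by name, and genes of 1 library are not independent. The count of 11 is therefore not read as an excess.

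Among inflamed libraries, that of rat 221 stood apart in Kcnj5, at 88.8 CPM against 28.9 to 47.7 CPM in the others, and in Kcnk6 (its row at 88346899 to 88355439 of chromosome 1), at 26.1 CPM against 7.07 to 13.02 CPM. The inflamed library of rat 219 had 291 CPM of Kcnq1, against 64.3 to 108 CPM in the others. That of rat 220 had 470 CPM of Kcnj3, against 15.6 to 28.4 CPM, and that of rat 218 had 22206 CPM of Kcnh3, against 8548 to 10452 CPM.

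Among uninflamed libraries, that of rat 218 stood apart in Kcnj5 (194 CPM against 87.2 to 122 CPM), Kcnq5 (38.1 CPM against 13.4 to 19.2 CPM) and Kcnj1 (3.51 CPM against 0.785 to 1.19 CPM). The uninflamed library of rat 220 was low in Kcnma1 (143 CPM against 219 to 263 CPM) and high in Kcns3 (15.4 CPM against 6.70 to 8.44 CPM). That of rat 223 was high in Kcnj3 (43.8 CPM against 15.9 to 23.3 CPM).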

How the results depend on the processing

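Between inflamed and uninflamed regions, the count of higher members stayed at 4 to 7 and that of lower members at 4 to 6 under every alternative run, and Kcnj2, Kcnj8, Kcne4, Kcne3, Kcnk5, Kcnk6 and Kcnj5 passed under all of them. Kcna3 passed wherever it was tested, the fit without a filter included. Kcna3 and Kcnj2 entered the main fit through their inflamed libraries alone, so passing the filter adds nothing to their calls. With the rat as a replicate block, 4 members were higher, with Kcna3 not tested, and 5 lower (Kcne3 -2.47, Kcnj2 3.25), and no other call at the 2-fold limit changed. Against controls, the higher members were 15 and the lower 1 under library totals, and the lower were 6 with DESeq2 (Kcnk6, Kcnh6 and Kcnt2 added). Leaving out 1 rat or control gave 1 to 5 higher and 1 to 5 lower members, with 1 and 1 without control 217 (a single control is then assumed to vary like the other groups) and 5 lower without rat 221 or its inflamed library. Members that did not pass turned sign in some fits. Under library totals the inflamed over uninflamed log2 fold changes were 0.21 for Kcnd3, 0.17 for Kcnk3, 0.14 for Kcnma1 and 0.20 for Kcnq1. That of Kcnn2 (its row at 38985929 to 39129190 of chromosome 18) was 0.10. The uninflamed over control ones were 0.34 for Kcnab3, 0.22 for Kcnj5 and 0.12 for Kcnk1. With this scaling the medians of all genes in the same comparisons were 0.28 and 0.43. Leaving out 1 rat or control at a time gave these ranges of log2 fold changes between inflamed and uninflamed regions: Kcnd3 -0.22 to 0.084, Kcnj1 -0.81 to 0.070, Kcnj10 -0.062 to 0.20, Kcnma1 -0.30 to 0.045, Kcnq1 -0.53 to 0.15, Kcns3 -0.036 to 0.21. Between uninflamed regions and controls they were Kcna3 -0.37 to 1.54, Kcnab3 -0.19 to 0.14, Kcnj5 -0.61 to 0.42, Kcnj8 -0.040 to 0.66. The cause was not tested. The 2 controls and the low counts of members such as Kcna3 limit what could be detected. All alternatives listed were run.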
